A study of Homo sapiens with 6 samples.

Results

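The transcription factors described here are 10 genes of 5 families that hold or change the mesenchymal state of cells: SNAI1 and SNAI2, ZEB1 and ZEB2, TWIST1 and TWIST2, PRRX1 and PRRX2, and RUNX1 and RUNX2. They are a set of named genes, with no threshold on their values, and rows were found by matching Ensembl identifiers to these symbols. Of the 10 genes, 9 had a row among the 22718 genes of the count table, and 8 of those were abundant enough to be among the 16084 genes tested. TWIST2 had no row and is not analysed here, and its level is not known from these files.

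RNA sequencing measured transcripts in 6 libraries labelled HT1197, an established line from a human bladder carcinoma. Cells in 10 cm dishes received either the vehicle, 1% DMSO, or panobinostat, a drug that inhibits histone deacetylases, at 2 times the IC50 of the line. The condition label of the samples reads untreated for the vehicle arm and treated for the panobinostat arm. Both arms were collected after 48 hours, and each held 3 libraries, named A, B and C. No genotype or transgene is given for either arm. Dishes were seeded in triplicate, but no label links a library with its dish. Each p-value therefore measures only how these libraries varied, and that variation may be technical.

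Library totals ran from 13417898 to 18186087 counts, and 3 counts, taken as the floor of detection, equalled 0.161 to 0.216 CPM (the TMM-scaled count relative to the library total). Of 18 luminal urothelial markers 12 had a row, with summed levels of 511 to 594 CPM in vehicle and 440 to 468 CPM in panobinostat. Most of that sum came from TBX3 and XBP1, which are not specific to urothelium. Of those 12 markers 3 averaged 10 FPKM or more in vehicle and 2 in panobinostat, and 6 were too low to be tested. FOXA1 had 0 counts in vehicle and 12 in panobinostat, KRT8 had 4 and 6, and UPK1A, UPK2, UPK3A, KRT18 and KRT20 had no row. Of 15 basal and squamous markers 7 had a row (11.4 to 12.2 CPM in vehicle, 21.5 to 22.4 in panobinostat), and KRT5 and KRT14 were not among them. All 19 markers of adrenergic neuroblasts had a row, and 16 of them averaged 10 FPKM or more in vehicle. The urothelial label thus went against most of these marker levels in all 6 libraries, and the cells are called by their label only.

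Epithelial-mesenchymal transition (EMT) is the change by which epithelial cells lose their junctions and gain motility and a fibrous matrix. The SNAI and ZEB zinc-finger proteins repress epithelial genes by binding E-box sequences and recruiting corepressors that include histone deacetylases. TWIST proteins are basic helix-loop-helix factors that pair with E-proteins, PRRX proteins are homeodomain factors of embryonic mesenchyme, and RUNX proteins bind DNA with the partner CBFB. In cells of the sympathetic lineage several of these genes mark a mesenchymal state, as opposed to an adrenergic state.

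After panobinostat the factors did not move in 1 direction. PRRX2, SNAI2 and SNAI1 rose, by 4.60-fold, 1.61-fold and 1.32-fold, and RUNX2 rose from almost no counts. TWIST1 and PRRX1 fell, 1.87-fold and 1.61-fold, and ZEB1 fell by 0.23 on the log2 scale. ZEB2 did not pass the test, and RUNX1 was too low to be tested. By edgeR's quasi-likelihood test, with p adjusted by Benjamini-Hochberg over all genes tested and called at 0.05, 4 of the 8 tested factors rose and 3 fell. Over all tested genes 65.2% passed, 33.7% upward and 31.5% downward, so being called was common, and RUNX2, kept through its panobinostat counts, had to be. In bulk samples, fewer cells of a type and less RNA per cell cannot be told apart.

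**Figure D1:**
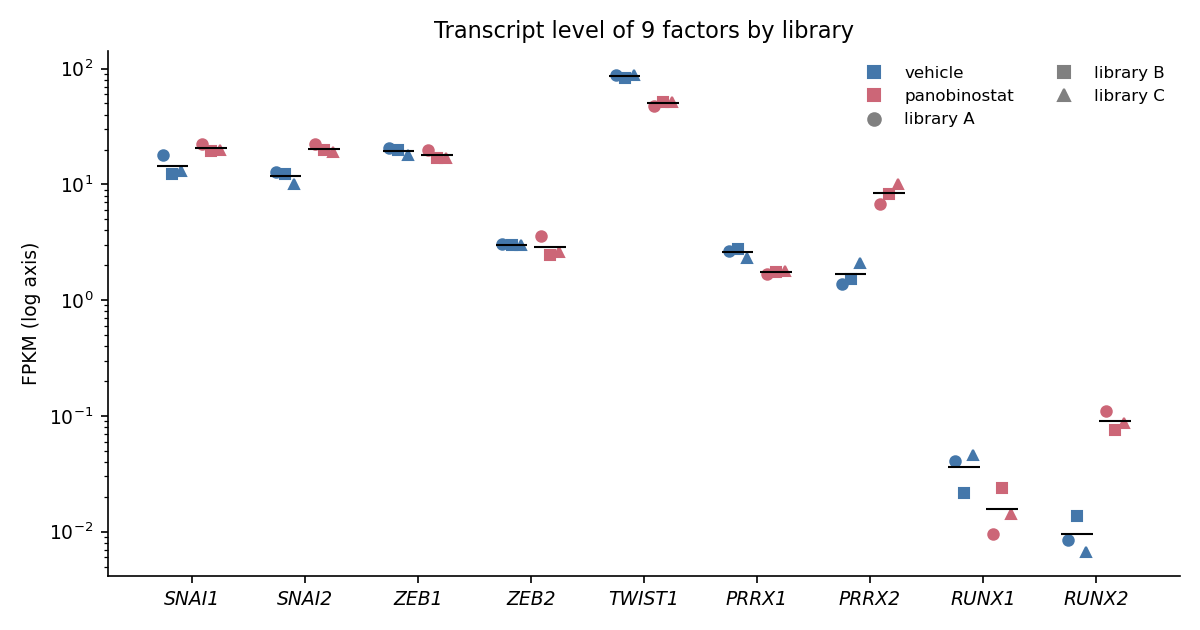
Level of the 9 factors with a row, in FPKM on a log axis, for the 3 vehicle libraries (blue) and the 3 panobinostat libraries (red), with marker shapes for libraries A to C and a line at each arm's mean. TWIST1 was highest in both arms (means of 86.6 and 50.0 FPKM), PRRX2 passed PRRX1 and ZEB2 in FPKM after panobinostat, and RUNX1 and RUNX2 lay below 0.2 FPKM in each library.

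SNAI1 (ENSG00000124216, GRCh38 chr20:49982999-49988886, plus strand) encodes Snail, a repressor of the E-cadherin gene. Its vehicle libraries A, B and C had 31.5, 21.5 and 23.0 CPM, and its panobinostat libraries 35.9, 31.5 and 32.3 CPM. Vehicle library A lay well above the other vehicle libraries and just under panobinostat library B, so the arms were barely apart. SNAI1 averaged 25.3 ± 5.34 CPM in vehicle and 33.2 ± 2.35 CPM in panobinostat (SD, n = 3 in each), a log2 fold change of 0.40 ± 0.12 (SE, adjusted p = 0.0115 by edgeR). The call ended without vehicle library B (log2 fold change 0.28, adjusted p = 0.0757 by edgeR) or vehicle library C (0.32, adjusted p = 0.0636).

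SNAI2 (ENSG00000019549, GRCh38 chr8:48917604-48921740, minus strand) encodes Slug, a repressor that acts in neural crest cells as they leave the neural tube. The vehicle libraries had 29.9, 29.3 and 24.3 CPM and the panobinostat libraries 48.5, 43.8 and 41.9 CPM. All panobinostat libraries exceeded all vehicle libraries by more than the range within an arm. The mean went from 27.8 ± 3.11 to 44.7 ± 3.40 CPM (SD, n = 3), with a log2 fold change of 0.69 ± 0.10 (SE, adjusted p = 2.29e-05 by edgeR). Arms that do not overlap in CPM were common, at 68.8% of tested genes, and 6 of the 8 tested factors had them.

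ZEB1 (ENSG00000148516, GRCh38 chr10:31318495-31529814, plus strand) is a repressor of E-cadherin and of the microRNAs of the miR-200 family, which in turn target ZEB transcripts. The annotation gives it 25 transcripts from 22 start sites, and counts per gene do not tell them apart. ZEB1 had 184, 179 and 163 CPM in vehicle and 163, 141 and 143 CPM in panobinostat. The arms met, since vehicle library C and panobinostat library A had the same value to 3 digits. The mean of ZEB1 was 175 ± 10.8 CPM in vehicle and 149 ± 12.4 CPM in panobinostat (SD, n = 3), a log2 fold change of −0.23 ± 0.08 (SE, adjusted p = 0.0176 by edgeR). The call ended when counts were scaled by library size alone (−0.12, adjusted p = 0.202) or by the upper quartile (−0.10, adjusted p = 0.307), and also with limma on FPKM. Leaving out panobinostat library B (−0.19, adjusted p = 0.0973) or C (−0.20, adjusted p = 0.0771) ended it too, as did leaving out vehicle library B (log2 fold change −0.22, adjusted p = 0.0512).

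Bases upstream of ZEB1, where an antisense RNA of the same region moved the other way, are shown by the rule given with the processing. They are 250 bases of the plus strand, chr10:31318167-31318416, from the RefSeq promoter table of build GRCh38.p14. The window ends at the first RefSeq start of ZEB1, which lies upstream of the GENCODE start given above. Capitals mark matches on either strand to 3 motifs: CAGGTG, an E-box bound by SNAI and ZEB proteins, CAGATG, an E-box form with TWIST sites, and GGGCGG, a GC box.
ZEB1: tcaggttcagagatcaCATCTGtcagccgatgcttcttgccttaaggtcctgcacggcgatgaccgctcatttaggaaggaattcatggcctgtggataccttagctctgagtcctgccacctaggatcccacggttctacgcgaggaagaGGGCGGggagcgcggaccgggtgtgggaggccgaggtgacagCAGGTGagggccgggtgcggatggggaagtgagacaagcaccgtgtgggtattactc
The window held 1 match to each motif, with CAGGTG at base 194 and CATCTG, the reverse complement of CAGATG, at base 17. Over 35116 RefSeq windows of that length, 17.5% hold CAGGTG, 12.2% hold CAGATG and 42.6% hold GGGCGG. Its GC content was 59.2%, against a median of 58.0% over the windows. A match describes letters and not a bound site.

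ZEB1-AS1, a noncoding RNA on the strand opposite to ZEB1 whose gene overlaps it by 1953 bases, had 13.3, 11.6 and 9.59 CPM in vehicle and 26.0, 20.8 and 19.98 CPM in panobinostat. All panobinostat values exceeded all vehicle values. ZEB1-AS1 rose by 0.95 ± 0.14 on the log2 scale (SE, adjusted p = 2.11e-05 by edgeR). The log2 ratio of ZEB1 to ZEB1-AS1 counts was 3.79, 3.95 and 4.09 in vehicle and 2.65, 2.76 and 2.84 in panobinostat, a difference of −1.19. Counting was by strand, per the file headers, so overlapping reads of these genes were assigned by their strand.

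ZEB2 (ENSG00000169554, GRCh38 chr2:144364364-144524583, minus strand) is the paralogue of ZEB1 and binds SMAD proteins. It had 68.7, 69.3 and 68.6 CPM in vehicle and 75.2, 51.8 and 55.3 CPM in panobinostat. Vehicle libraries were almost equal, whereas panobinostat library A stood above them and libraries B and C below. ZEB2 averaged 68.9 ± 0.416 and 60.8 ± 12.6 CPM (SD, n = 3), and its log2 fold change of −0.18 ± 0.11 did not pass (SE, adjusted p = 0.163 by edgeR). Without panobinostat library A the same test gave −0.36 with an adjusted p of 0.000695, so that library decides the call.

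TWIST1 (ENSG00000122691, GRCh38 chr7:19020991-19117672, minus strand) is a helix-loop-helix factor of cranial neural crest and mesoderm. It was the most abundant of the 9 factors per length, with 87.6, 83.5 and 88.8 FPKM in vehicle and 47.5, 51.2 and 51.4 FPKM in panobinostat. Each arm was tight and the arms lay far apart. In vehicle its FPKM was above that of 97.4% of tested genes, and in panobinostat above that of 94.7%. On the test's scale TWIST1 went from 183 ± 5.54 to 98.0 ± 4.88 CPM (SD, n = 3), a log2 fold change of −0.90 ± 0.07 (SE, adjusted p = 4.66e-08 by edgeR). TWIST1 was called lower in all 16 alternative analyses, with log2 fold changes from −0.93 to −0.76. That fall is larger in size than the change of 74.7% of tested genes.

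PRRX1 (ENSG00000116132, GRCh38 chr1:170662728-170739419, plus strand) is a homeodomain factor of limb and craniofacial mesenchyme and part of the mesenchymal core set described in neuroblast lines. It had 22.8, 24.1 and 20.1 CPM in vehicle and 13.4, 13.8 and 14.3 CPM in panobinostat. The lowest vehicle library was well above the highest panobinostat library. PRRX1 fell from 22.3 ± 2.04 to 13.9 ± 0.443 CPM (SD, n = 3), a log2 fold change of −0.69 ± 0.10 (SE, adjusted p = 3.95e-05 by edgeR).

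PRRX2 (ENSG00000167157, GRCh38 chr9:129665641-129722674, plus strand), its paralogue, is known from fetal skin and limb mesenchyme. It had 1.88, 2.11 and 2.89 CPM in vehicle, from 26, 36 and 50 counts, and 8.49, 10.3 and 13.0 CPM in panobinostat, from 119, 174 and 242 counts. The lowest panobinostat library was well above the highest vehicle library. PRRX2 went from 2.29 ± 0.531 to 10.6 ± 2.25 CPM (SD, n = 3), a log2 fold change of 2.20 ± 0.20 (SE, adjusted p = 2.63e-07 by edgeR). That change is larger in size than the change of 92.1% of tested genes.

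The bases before the start of PRRX2, the factor with the largest rise among those well detected in both arms, are shown by the same rule. They are 244 bases of the plus strand, chr9:129665397-129665640, from the same RefSeq table of build GRCh38.p14, and capitals mark GGGCGG or its reverse complement CCGCCC.
PRRX2: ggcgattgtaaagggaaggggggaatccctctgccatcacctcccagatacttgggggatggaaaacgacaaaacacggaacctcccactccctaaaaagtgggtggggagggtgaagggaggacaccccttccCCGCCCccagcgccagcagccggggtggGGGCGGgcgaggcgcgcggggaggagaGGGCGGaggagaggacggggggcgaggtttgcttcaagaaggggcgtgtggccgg
The window held 3 GC boxes, and 42.0% of the 35116 windows of that length hold 1 or more. Its GC content of 66.4% exceeded that of 70.8% of the windows. Neither of the E-boxes above occurs, nor the RUNX motif TGTGGT or the homeodomain core TAATTA, in these letters on either strand.

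RUNX1 (ENSG00000159216, GRCh38 chr21:34787801-36004667, minus strand) is a factor of blood stem cell formation and of sensory neurons. It had 9, 6 and 13 counts in vehicle and 2, 6 and 4 in panobinostat, and its arms overlapped. The ratio of the summed counts, 12 to 28, was 0.417 after allowing for library totals, with a 95% exact interval of 0.193 to 0.847 that covers counting error only. RUNX1 was removed by the abundance filter and carries no test here.

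RUNX2 (ENSG00000124813, GRCh38 chr6:45328157-45664349, plus strand) is the factor that drives bone formation. It had 1, 2 and 1 counts in vehicle, under the floor of 3, and 12, 10 and 13 counts in panobinostat. It passed the abundance filter through the panobinostat arm alone, so it had to differ. The ratio of the summed counts, 35 to 4, was 8.52 after allowing for library totals (95% exact counting interval 3.05 to 33.0), and edgeR gave an adjusted p of 0.000186. Even so its mean was 0.0906 FPKM in panobinostat, so RUNX2 remained a rare transcript.

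The bases before the first annotated start of RUNX2, a gene that left the floor, are shown by the same rule. They are the 77 bases of chr6:45328080-45328156, plus strand, in the RefSeq table of build GRCh38.p14, and capitals mark ACCACA, the reverse complement of the RUNX motif TGTGGT.
RUNX2: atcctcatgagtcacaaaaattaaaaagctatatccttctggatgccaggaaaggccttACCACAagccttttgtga
The motif occurs once, and 3.65% of the 35116 windows hold it in their first 77 bases. Those bases are the ones farthest from each RefSeq start, whereas the RUNX2 piece ends directly before the GENCODE start. The background is therefore not matched to the piece by distance from that start. The piece had no CpG and a GC content of 40.3%, against a median of 54.5% over the same first 77 bases of the windows. RUNX2 has 11 annotated start sites, and the counts do not say which was used.

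**Figure D2:**
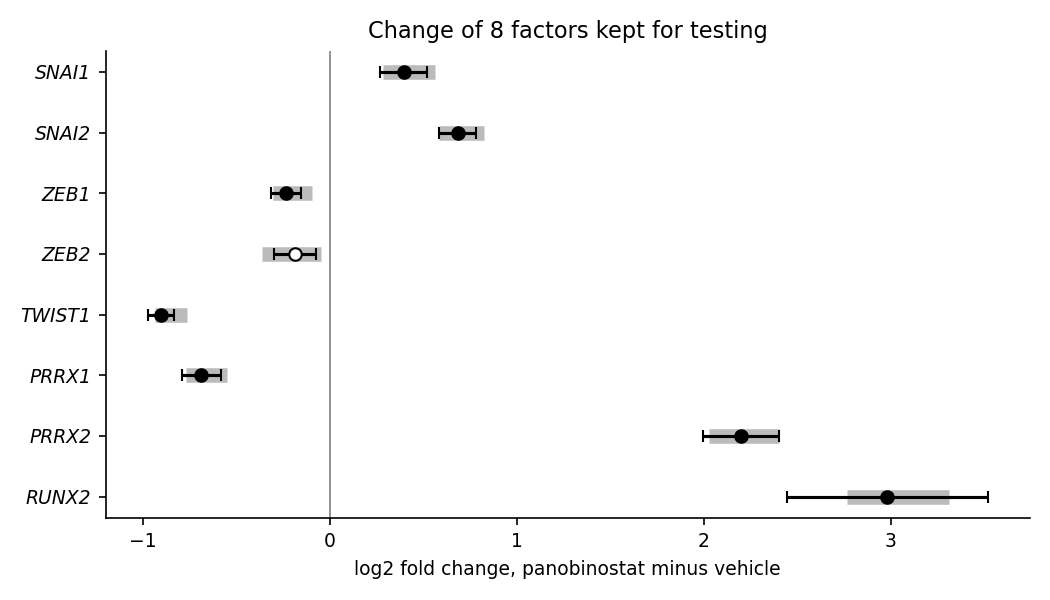
Log2 fold change (panobinostat minus vehicle) of the 8 tested factors by edgeR, with the SE as error bars. Grey bars span the count-based alternatives, filled points passed an adjusted p of 0.05 and the open point, ZEB2, did not. SNAI1, SNAI2, PRRX2 and RUNX2 lie right of 0, and TWIST1, PRRX1 and ZEB1 left of it.

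Per length, the order of the factors in vehicle was TWIST1 (86.6 FPKM), ZEB1 (19.5), SNAI1 (14.5), SNAI2 (11.7), ZEB2 (3.01), PRRX1 (2.60), PRRX2 (1.68), RUNX1 (0.036) and RUNX2 (0.0096). Of these neighbours, ZEB1 and SNAI1, and SNAI1 and SNAI2, had ranges over libraries that overlapped. In panobinostat the order was TWIST1 (50.0 FPKM), SNAI1 (20.5), SNAI2 (20.4), ZEB1 (17.9), PRRX2 (8.37), ZEB2 (2.87), PRRX1 (1.74), RUNX2 (0.0906) and RUNX1 (0.0158). There SNAI1, SNAI2 and ZEB1 overlapped as neighbours and no others did. Per length PRRX2 thus moved from the seventh place to the fifth, and the RUNX genes changed places at the bottom. FPKM divides by an annotated length, which the deposited values place at 21963 bases for ZEB2 and 1686 for SNAI1, so genes with many annotated exons read low.

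Within families, the ratio of paralogues was apart between arms in 1 of the 3 pairs that had 10 counts or more in every library. The log2 ratio of PRRX1 to PRRX2 counts was 3.60, 3.52 and 2.799 in vehicle and 0.66, 0.43 and 0.14 in panobinostat, a difference of −2.90. Those arms did not overlap, and the exact two-sided permutation test gave p = 0.1 (adjusted over 3 pairs, 0.3), the smallest that 3 against 3 libraries allow. PRRX2 made up 34.1%, 35.5% and 47.5% of the summed PRRX FPKM in vehicle and 79.9%, 82.4% and 85.1% in panobinostat. Per length, PRRX2 was therefore the minor paralogue in each vehicle library and the major paralogue in each panobinostat library. In counts PRRX1 stayed above PRRX2 in all 6 libraries, and the lengths behind the FPKM are 8246 bases for PRRX1 and 1311 for PRRX2.

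The log2 ratio of SNAI1 to SNAI2 counts averaged −0.15 ± 0.27 in vehicle and −0.43 ± 0.05 in panobinostat (SD, n = 3; exact permutation p = 0.3, adjusted 0.45). SNAI2 made up 41.3%, 50.1% and 43.7% of the summed SNAI FPKM in vehicle and 50.0%, 50.7% and 49.0% in panobinostat. For ZEB1 to ZEB2 the ratio was 1.35 ± 0.09 and 1.31 ± 0.17 (SD, n = 3; exact permutation p = 0.9, adjusted 0.9). Both differences lay within the spread between libraries.

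**Figure D3:**
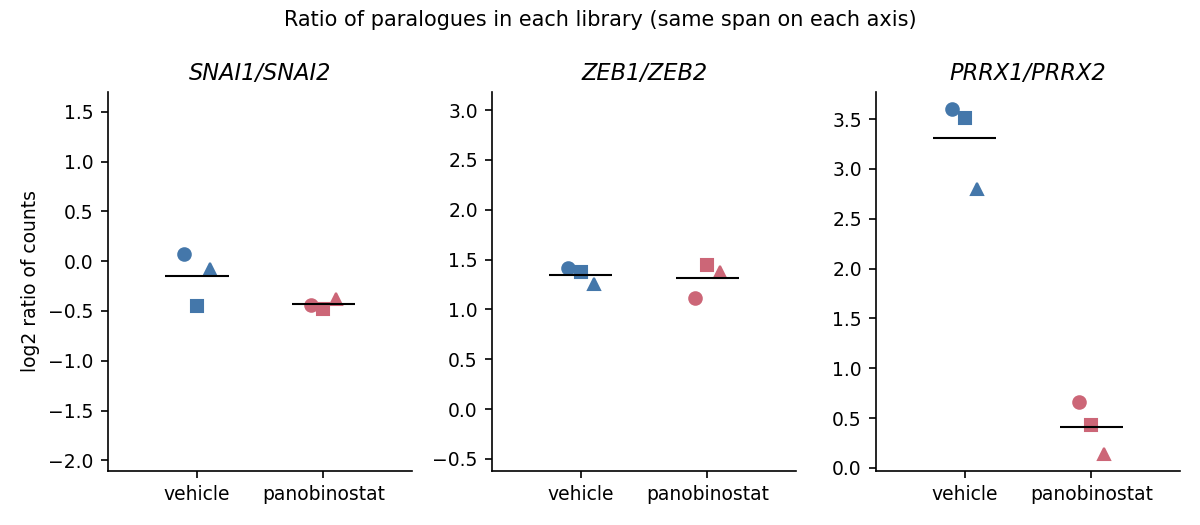
Log2 ratio of the counts of 2 paralogues in each library (circle A, square B, triangle C), with a line at each arm's mean and the same span on the 3 axes. The PRRX1 to PRRX2 ratio is 2.799 or more in vehicle and 0.66 or less in panobinostat, and the SNAI and ZEB ratios overlap between arms.

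Transcripts of the proteins that carry out repression for SNAI and ZEB mostly fell. Of 22 corepressor partners, all tested, 15 fell, 2 rose and 5 did not pass, and their median log2 fold change was −0.58 against 0.01 for all tested genes, of which 33.7% rose and 31.5% fell. CTBP1, the corepressor that ZEB proteins recruit, fell from 236 ± 11.8 to 136 ± 12.9 CPM (SD, n = 3; log2 fold change −0.79, adjusted p = 7.46e-07 by edgeR), and CTBP2 fell from 60.7 to 41.2 CPM. RCOR2, a scaffold of the complex with the demethylase KDM1A, fell from 138 ± 12.8 to 59.2 ± 2.02 CPM, and EHMT2, a methylase of histone H3, fell by 1.21 ± 0.09 on the log2 scale (SE). WTIP and AJUBA, LIM-domain proteins of 1 family that bind SNAI proteins, went in opposite directions, with log2 fold changes of −1.55 ± 0.28 and 2.38 ± 0.23 (SE). HDAC1, which SNAI1 recruits, was the other gene that rose (0.40 ± 0.07).

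TWIST1 acts through its partners. Of 11 tested E-protein and ID genes 4 rose, 2 fell and 5 did not pass, with a median log2 fold change of 0.06, beside 33.7% and 31.5% of all genes. TCF3, the E-protein E2A, fell from 387 ± 21.8 to 264 ± 5.93 CPM (SD, n = 3). The E-proteins TCF4 and TCF12 had log2 fold changes of 0.06 ± 0.07 and 0.05 ± 0.07 (SE, adjusted p = 0.453 and 0.521 by edgeR), and they passed as higher under library-size or upper-quartile scaling and with limma on FPKM. ID1 and ID4, which bind E-proteins and keep them off DNA, rose by 0.97 ± 0.08 and 1.65 ± 0.11 on the log2 scale (SE). TCF15, a helix-loop-helix factor of paraxial mesoderm, rose by 0.81 ± 0.21.

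Of 12 tested RUNX partners 5 rose, 5 fell and 2 did not pass, with a median log2 fold change of −0.02, and 65.2% of all tested genes passed. CBFB, the shared DNA-binding partner, had 95.03 ± 5.67 and 107 ± 5.17 CPM (SD, n = 3; log2 fold change 0.17, adjusted p = 0.0581 by edgeR), and it passed as higher in 7 of the 16 alternatives, with values from 0.19 to 0.31. RUNX3, the third gene of the family, rose from 1.46 to 2.83 CPM (log2 fold change 0.98 ± 0.25). YAP1, a coactivator that can bind RUNX proteins, rose from 4 to 272 counts in sum (ratio 66.2, 95% exact counting interval 25.6 to 245). Like RUNX2, YAP1 was kept through the panobinostat arm alone and had to differ, so it adds nothing to the count of 5. The Groucho corepressors TLE2 and TLE3 went apart, with log2 fold changes of 1.09 ± 0.16 and −0.63 ± 0.08 (SE).

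Among 19 tested genes that mark SNAI, ZEB and TWIST proteins for breakdown or spare them, 8 fell, 1 rose and 10 did not pass (median −0.13). Over all tested genes 65.2% passed, 33.7% upward and 31.5% downward, and the difference of these 19 genes from those shares was not tested. The gene that rose was USP9X, a deubiquitinase (log2 fold change 0.28 ± 0.10, SE). BTRC, the ubiquitin ligase subunit that recognises phosphorylated SNAI1, fell by 0.62 ± 0.09, and FBXO11, another ligase subunit for SNAI proteins, fell by 0.55 ± 0.10 (log2, SE). SIAH1 and SIAH2, RING ubiquitin ligases, fell by 0.78 ± 0.09 and 0.59 ± 0.08. Protein levels were not measured in these files.

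Some signals that induce the factors rose from low levels. Of 25 tested TGF-beta, BMP, WNT and NOTCH inputs 12 rose, 8 fell and 5 did not pass (median 0.24), beside 33.7% and 31.5% of all genes. The summed level of the 26 inputs with a row did not rise, at 2494 to 2515 CPM in vehicle and 2291 to 2385 CPM in panobinostat. The ligand TGFB1 rose from 2.55 ± 0.751 to 11.8 ± 0.438 CPM, the receptor TGFBR2 from 0.589 ± 0.161 to 4.73 ± 0.384 CPM and the receptor NOTCH1 from 2.82 ± 0.36 to 19.0 ± 3.92 CPM (SD, n = 3). The coreceptor ENG went from 10 to 194 counts in sum. TGFBR2, ENG and BMP4, counted among the 12, averaged under 1 CPM in vehicle, near or under what the filter keeps. At the other end NFKB1, an NF-kappa-B subunit, fell by 1.45 ± 0.11 on the log2 scale (SE).

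Other factors of the same cell states are given beside all tested genes, of which 65.2% were called, 33.7% upward and 31.5% downward. Of 20 tested transcription factors reported in mesenchymal neuroblasts, 12 rose, 3 fell and 5 did not pass (median 0.85), and 2 of the 12, NOTCH2 and MEOX2, were kept through the panobinostat arm alone and had to rise. STAT3, a signal transducer of cytokine receptors, rose from 80.4 ± 0.813 to 219 ± 15.5 CPM (SD, n = 3), and SMAD3, the TGF-beta effector, rose by 1.96 ± 0.24 on the log2 scale (SE). MAFF, a small MAF protein, rose by 1.76 ± 0.19. NOTCH2 had 0 counts in vehicle and 333 in panobinostat, at least 108-fold higher with vehicle set at 3 counts for the whole arm. Of 14 tested further EMT-linked factors 6 rose, 3 fell and 5 did not pass (median 0.16), with ETV4 (2.47 ± 0.13), SOX9 (1.68 ± 0.20) and ETV5 (1.24 ± 0.09) up and GSC, the homeobox gene goosecoid, down (−1.56 ± 0.32).

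The downstream genes were read in both directions of EMT. Of 30 tested mesenchymal genes 18 rose, 6 fell and 6 did not pass (median 0.49), beside 33.7% and 31.5% of all genes. Of the 18, 3 averaged under 1 CPM in vehicle, near or under what the filter keeps. VIM, the intermediate filament vimentin, had 215, 205 and 196 CPM in vehicle and 667, 670 and 690 CPM in panobinostat, and FN1, fibronectin, rose from 37.8 ± 1.10 to 296 ± 28.3 CPM (SD, n = 3). The lumican gene LUM (log2 fold change 5.89 ± 0.11), the integrin gene ITGA5 (3.77 ± 0.18) and the collagen gene COL1A1 (3.76 ± 0.17) also rose (SE). CDH2, N-cadherin, had 18.2 ± 0.863 and 16.5 ± 0.938 CPM (SD, n = 3; adjusted p = 0.235 by edgeR).

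Fibroblast markers moved beside these genes: of 8 tested 5 rose and 3 fell, and their summed level was 544 to 556 CPM in vehicle and 562 to 615 CPM in panobinostat. All but FBLN1 are also in the mesenchymal list, COL1A2 had 7 and 10 counts in the arms, and FAP had no row. Of 18 tested adrenergic neuroblast markers 15 fell and 1 rose, with a summed level of 6808 to 7489 CPM in vehicle and 5157 to 5377 CPM in panobinostat. Beside both marker lists, 33.7% of all tested genes rose and 31.5% fell. The part of either marker list in the changes of the factors was not tested.

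Of 40 epithelial genes repressed by SNAI and ZEB proteins, 20 had no row, among them CDH1, the gene of E-cadherin, and 11 were tested. Of those 11, 9 rose, 1 fell and 1 did not pass (median 2.55), but 6 averaged under 1 CPM in vehicle, near or under what the filter keeps, so neither the count nor its distance from the 33.7% of all genes that rose is a result. LLGL2, a polarity protein, went from 0.691 ± 0.104 to 8.44 ± 1.85 CPM, the claudin CLDN4 from 0.584 ± 0.208 to 4.65 ± 0.569 CPM and GRHL1, a grainyhead factor, from 1.55 ± 0.287 to 9.10 ± 0.841 CPM (SD, n = 3). EPCAM, an epithelial adhesion protein, fell by 0.76 ± 0.24 on the log2 scale (SE, adjusted p = 0.0125 by edgeR), a call that ended without panobinostat library B (−0.67, adjusted p = 0.0579). Genes of both directions of EMT were therefore among those that rose.

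Targets of the RUNX factors gave short lists. Of 10 tested bone and cartilage genes 3 rose, 2 fell and 5 did not pass (median 0.31), beside 33.7% and 31.5% of all genes. MSX2, a homeobox gene of skull and limb, rose from 11.8 ± 1.61 to 63.5 ± 2.49 CPM (SD, n = 3), the parathyroid hormone receptor PTH1R rose by 0.99 ± 0.27, and the homeobox gene DLX6 fell by 0.63 ± 0.17 on the log2 scale (SE). Of 6 tested blood and myeloid genes 4 rose, 1 fell and 1 did not pass (median 1.20), but 2 of the 6, CSF1R and LMO2, averaged under 1 CPM in vehicle, near or under what the filter keeps. Among the rest were GFI1 (1.98 ± 0.24), CEBPA (1.25 ± 0.16) and ITGA2B (1.14 ± 0.21) up and MYB down (−1.38 ± 0.13). Of 10 leukocyte markers 3 had a row, with a summed level of 1.05 to 2.09 CPM in vehicle and 1.60 to 2.93 CPM in panobinostat. Of 8 endothelial markers 5 had a row (1.52 to 1.66 CPM in vehicle, 3.96 to 4.66 in panobinostat).

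Of 12 antisense and neighbouring noncoding RNAs of the factors, 3 had a row. Besides ZEB1-AS1, SNAI3-AS1 rose by 1.42 ± 0.21 on the log2 scale (SE, adjusted p = 2.51e-05 by edgeR), and ZEB2-AS1 had a log2 fold change of 1.14 ± 0.51 from 16 and 37 counts (adjusted p = 0.0608). The hosts of the miR-200c and miR-205 microRNAs, which target ZEB transcripts, had no row.

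**Figure D4:**
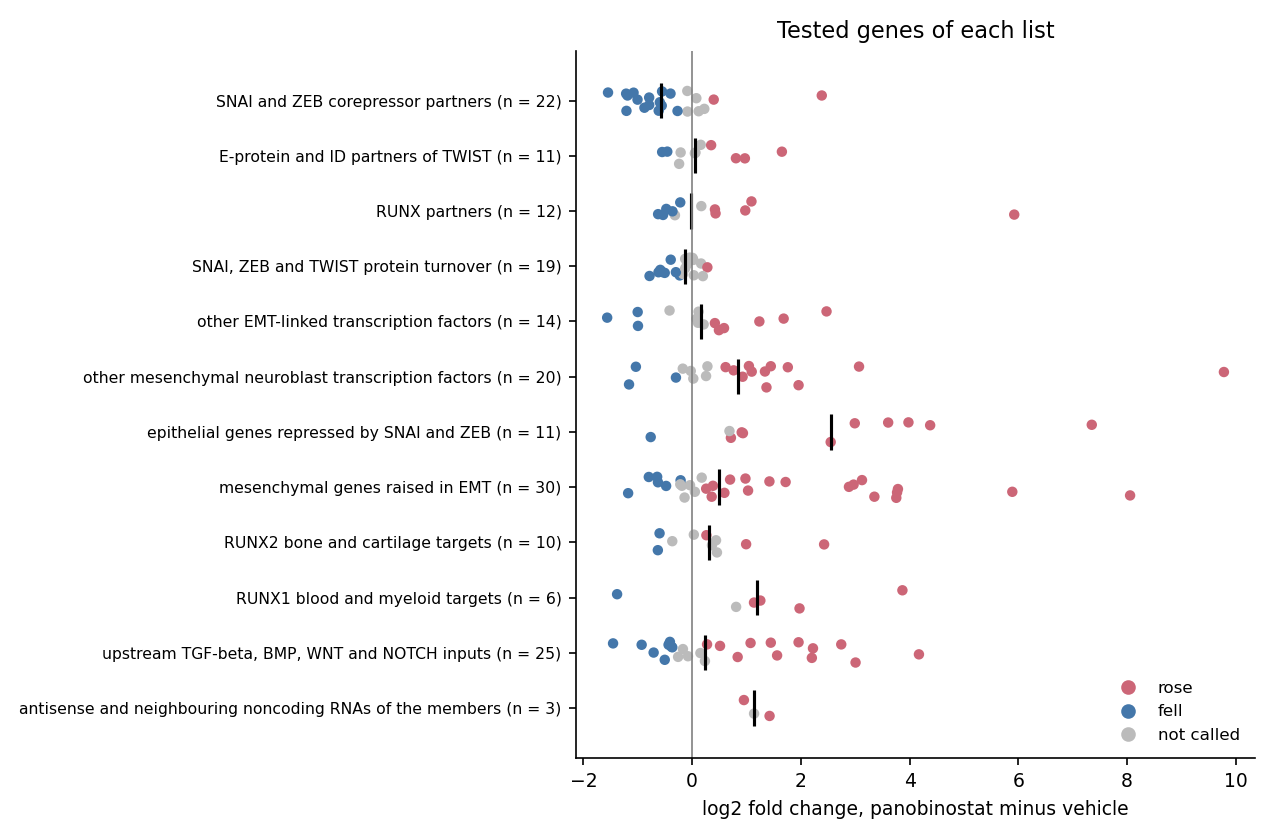
Log2 fold change (panobinostat minus vehicle) of each tested gene of 12 lists around the factors, red where it rose, blue where it fell and grey where it did not pass an adjusted p of 0.05, with a black bar at each list's median (vertical scatter is for display). The corepressor partners have a median of −0.58, and the points past 7 belong to genes with 0 counts in vehicle, whose fitted values are no measure of size.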

How the data were processed

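Per the file headers, the authors made the deposited count per gene with featureCounts 1.5.0-p3, by strand (option 2), on Ensembl release 84 genes, from a command that names 9 alignment files. Only the 6 with columns here were used. Novoalign 2.8, Subread, featureCounts 1.5.1 and hg38 are named per the submitters' processing notes. The deposited FPKM values are the authors' own. How these were made, and by which rule rows were kept, the sources used here do not say.

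Symbols came from a table that matched 22318 of 22718 identifiers, coordinates from GENCODE release 29 and promoter windows from RefSeq (GRCh38.p14). A printed window keeps the bases before a start that lie in no exon of the same strand, if at least 60 remain. Of the factors called here and not on chromosome 8, ZEB1, PRRX2 and RUNX2 met this rule. Motifs were searched on both strands, and GC-box matches may overlap other motifs.

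The tool was edgeR 4.0.16 (R 4.3.3). After filterByExpr (at least 10 counts and 15 in total), TMM factors scaled the counts, and the quasi-likelihood test compared panobinostat minus vehicle over 6 libraries, adjusted over all genes tested. The SE is the log2 fold change divided by the square root of the F statistic. The steps were tested on simulated data. Paralogue ratios had an exact two-sided permutation test. Intervals and floors on counts cover counting error alone. No 2 libraries agreed within sampling noise.

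The factors and gene lists were chosen with earlier results of these data known. From each list the text names up to 4 genes called, averaging 1 CPM or more, with non-overlapping arms and the largest change, plus VIM, FN1, CDH1, CDH2, EPCAM, CBFB, CTBP1, CTBP2, TCF3, TCF4 and TCF12. A few genes this rule selects are left unreported. HDAC1, USP9X, NFKB1, ZEB2-AS1 and the low-count genes and cell type markers were chosen after their values were seen. Alternatives were DESeq2 1.42.0, other scalings, other filters, a replicate block, limma 3.58.1 on log2(FPKM + 1) or log2(FPKM + 0.1), and each library left out. No set test was made.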

Additional observations from a re-analysis of the deposited data

How the results depend on the processing

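Over 63 named genes and 16 alternatives, 944 of 975 log2 fold changes kept their direction and side of the threshold, 13 lost the call and 18 gained it, and none changed sign past the threshold. Most of these genes were named because they were called with non-overlapping arms and the largest changes. Keeping the call was therefore likely from the start, and the total is no check on genes with small changes. Of the factors 3 to 4 rose and 2 to 4 fell in each alternative. ZEB1 lost its call in 8 of the 16 and SNAI1 in 2, and ZEB2 gained a call in 1. Genes that rose made up 51.7% of those called, 61.0% with library size alone, 63.2% with upper quartile scaling and 64.7% with limma without a filter, and the first 2 scalings shifted the median of all genes by 0.11 and 0.14 (log2). SNAI2, TWIST1, PRRX1 and PRRX2 were called in the same direction in all 16, with PRRX1 from −0.77 to −0.39 and PRRX2 from 1.80 to 2.40. RUNX2 was not kept by a filter at a mean of 1 CPM or 1 FPKM, and limma on log2(FPKM + 1) without a filter gave it 0.11. DLX6 (adjusted p = 0.0655) and EPCAM (0.0591) did not pass with that limma fit. The letters A to C were not taken to pair the libraries, since not every same-letter correlation of deviations from the arm means was over 0.1 (A 0.10, B −0.03, C 0.24 over 9802 genes). Those of A and C were the highest of all 9, and those between letters ran from −0.18 to 0.04. With the replicate block, 5432 genes rose and 5109 fell, against 5416 and 5066 without it, and of the factors 4 rose and 3 fell. The medians of the lists did not change when genes with 0 counts in vehicle were set at their bounds. A median hardly responds to the size of values far above it, so this is no check on the lists. Depth limits RUNX1 and RUNX2, whose libraries held 13 counts or fewer.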

Other observations

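Several relatives and partners of the factors, and genes from the lists of targets and markers, lay under the abundance filter. They are given as summed counts of the 3 libraries of an arm, with no test. SNAI3, the third SNAI gene, had 0 counts in vehicle and 14 in panobinostat. Of the mesenchymal factors, BHLHE41 had 0 and 22 counts and GLIS3 had 3 and 34. SPP1, the bone matrix gene osteopontin, had 1 and 53 counts, and BGLAP, osteocalcin, had 13 and 6. WWTR1, the paralogue of YAP1, had 4 and 14 counts. FOXC2, a forkhead factor of EMT, had 14 and 20 counts. The adhesion receptor CD44 had 13 and 0 counts, and desmoplakin, DSP, had 0 and 9. These genes were chosen after their values were seen.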
